A study of Homo sapiens with 32 samples.

Results

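The 36 genes described here encode proteins of homologous recombination and of the Fanconi anemia pathway, and were taken from the deposited table by their symbols, 36 of 24249 distinct gene IDs. They comprise the BRCA1 and BRCA2 complex, the strand exchange paralogs RAD51B, RAD51C, RAD51D, XRCC2 and XRCC3, the translocases RAD54L and RAD54B, the Fanconi core complex with FANCI and FANCD2, the BLM dissolution complex, end resection factors, the break sensor MRE11-RAD50-NBN and the kinases ATM, ATR, CHEK1 and CHEK2. All 36 passed the filter on low values, a mean of the 4 group means of at least 0.5 FPM (fragments scaled to a library total of 1000000), with at least 19 reads in every library.

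RNA was taken from MM.1S, an established human multiple myeloma cell line, after a 1 h pulse and a further 12 h in culture, per the labels' protocols. ATRA cells had a DMSO pulse and then 10 µM all-trans retinoic acid, a vitamin A derivative that activates retinoic acid receptors (n = 3 libraries). Cfz cells had a pulse of the proteasome inhibitor carfilzomib, at a dose not given in the sources used here, and then DMSO (n = 1). ATRA+Cfz cells had the carfilzomib pulse and then 10 µM ATRA (n = 1), and DMSO cells had vehicle at both steps (n = 3).

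Homologous recombination repairs a broken chromosome by copying the sister chromatid. The break is sensed by MRE11-RAD50-NBN and ATM, its ends are cut back, BRCA2 with its partners prepares the single strand to invade the sister, and the joint made with the sister is later taken apart. The Fanconi anemia pathway unhooks DNA interstrand crosslinks at stalled replication forks, where its core complex attaches ubiquitin to FANCI and FANCD2, and it hands the resulting break to recombination. Many of these genes are transcribed mainly as cells enter and pass through S phase. Myeloma cells carry frequent chromosome breaks and are treated with crosslinking drugs such as melphalan, which gives both pathways their interest in this cell type.

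Recovered depth was 14136937 to 17155331 reads per library, and a floor of 3 reads corresponded to 0.175 to 0.212 FPM, for counting error only. Plasma cell markers were abundant, with SDC1 at 330 to 1270 FPM and IRF4 at 830 to 1217 FPM, while epithelial, stromal, myeloid and T or NK cell markers stayed at or below 3.34 FPM. DMSO 3 stood apart from the other DMSO libraries. Its chi-square per degree of freedom was 10.5 and 11.0 against DMSO 1 and DMSO 2, which differed from each other by 1.81, and mitochondrially encoded genes took 5.85% of its reads, against 4.12% and 4.09% in DMSO 1 and DMSO 2. The same share lay between 3.67% and 3.89% with ATRA, and at 5.43% with Cfz and 5.72% with ATRA+Cfz, so both carfilzomib libraries had a share near that of DMSO 3. Its part in the differences of these libraries was not tested. Calls of the 36 genes that change without DMSO 3 are given beside the gene.

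Promoter sequences are shown so that genes that moved together can be compared for shared motifs, for the members with the largest falls under ATRA that had one in the table used, and for ATM, chosen after its values were seen because it rose most. RefSeq windows (GRCh38.p14) were matched by symbol for 32 of the 36 genes, and NBN, FANCI, RAD54B and RMI2 had no entry. Each sequence covers the 250 bases before the transcript start, on the gene's own strand. Capitals mark a CCAAT box (CCAAT or its complement ATTGG) or a cell cycle homology region (CHR, TTTGAA or TTCGAA), both searched on both strands. BLM encodes the RecQ helicase of the dissolution complex (chr15:90717096-90717345, plus strand), RAD54L a DNA translocase of strand exchange (chr1:46247438-46247687, plus strand), BARD1 the partner of BRCA1 (chr2:214809684-214809933, minus strand) and ATM the kinase that answers double-strand breaks (chr11:108222817-108223066, plus strand).
BLM: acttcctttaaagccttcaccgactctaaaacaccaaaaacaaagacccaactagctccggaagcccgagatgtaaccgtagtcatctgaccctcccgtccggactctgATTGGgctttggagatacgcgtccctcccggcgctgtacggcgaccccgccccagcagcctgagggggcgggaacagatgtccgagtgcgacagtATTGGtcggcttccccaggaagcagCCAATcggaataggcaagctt
RAD54L: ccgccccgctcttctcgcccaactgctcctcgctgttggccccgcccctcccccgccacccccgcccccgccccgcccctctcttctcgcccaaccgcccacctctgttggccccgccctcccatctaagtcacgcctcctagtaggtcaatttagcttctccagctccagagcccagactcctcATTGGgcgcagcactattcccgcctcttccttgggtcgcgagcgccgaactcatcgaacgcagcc
BARD1: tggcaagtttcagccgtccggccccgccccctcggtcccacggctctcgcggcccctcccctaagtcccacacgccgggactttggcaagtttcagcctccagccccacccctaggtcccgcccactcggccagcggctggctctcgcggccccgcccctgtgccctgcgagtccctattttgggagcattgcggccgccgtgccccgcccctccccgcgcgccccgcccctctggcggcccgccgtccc
ATM: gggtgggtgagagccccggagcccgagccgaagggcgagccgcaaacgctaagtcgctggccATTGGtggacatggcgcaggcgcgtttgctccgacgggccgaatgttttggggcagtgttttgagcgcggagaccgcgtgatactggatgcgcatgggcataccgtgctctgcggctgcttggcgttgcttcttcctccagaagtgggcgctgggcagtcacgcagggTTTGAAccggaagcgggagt

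The BLM stretch held 3 CCAAT boxes, RAD54L 1, ATM 1 CCAAT box and 1 CHR, and BARD1 neither. Over windows of 250 bases before to 50 after each start, 14 of 32 members held a CCAAT box, against 34.6% of all 35116 windows, and 3 held a CHR, against 16.4%. By gene, among the 10604 tested genes with a window, the shares were 43.6% and 16.1%. A strict form of the retinoic acid response element, AGGTCA repeated without mismatch after any 5 bases, was in 0 of 32 members and in 2 of the 35116 windows. This form is so rare that its absence from the 32 members cannot tell them from other genes. Looser forms were not searched. None of these counts says whether a factor binds there.

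The E2F motif (TTTCCCGC, TTTCGCGC, TTTGCCGC or TTTGGCGC, either strand) stood in the windows of 6 of 32 members, or 18.8%, against 6.67% of tested genes and 3.31% of all windows. The 6 were EXO1, FANCA, FANCC, FANCD2, RMI1 and XRCC2. They were 6 of the 24 members with a window that fell with ATRA, and 0 of the other 8 members had the motif. The difference between these small counts was not tested. The log2 fold changes of the 6 with ATRA ran from -0.39 (FANCD2) to -0.87 (XRCC2). BLM, RAD54L and BARD1, which fell more, did not hold the motif. In EXO1, FANCD2 and XRCC2 it lay across or past the start, and the remaining matches are shown with up to 26 bases on each side and the motif in capitals. They lie at chr16:89816786-89816845 (FANCA), chr9:95317848-95317907 and chr9:95317722-95317781 (FANCC, distal and proximal), all on the minus strand, and chr9:83980747-83980804 (RMI1, plus strand).
FANCA: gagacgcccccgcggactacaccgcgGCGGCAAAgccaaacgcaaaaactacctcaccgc
FANCC distal: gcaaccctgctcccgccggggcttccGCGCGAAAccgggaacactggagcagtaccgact
FANCC proximal: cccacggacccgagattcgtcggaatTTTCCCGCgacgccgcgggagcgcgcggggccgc
RMI1: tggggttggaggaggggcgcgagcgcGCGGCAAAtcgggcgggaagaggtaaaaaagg

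In DMSO cells the genes differed widely in level per transcript length. FANCI was the most abundant, at 57.8 FPM per kb of its longest coding transcript, followed by RBBP8 at 50.4, XRCC2 at 29.8, CHEK1 at 29.6 and EXO1 at 28.7 FPM per kb. The lowest were RAD51B at 0.969, FANCM at 2.64, RAD52 at 3.71, RAD54B at 3.83 and BRCA2 at 3.87 FPM per kb. Of the 36 genes, 30 had their highest group level with DMSO and 27 their lowest with ATRA+Cfz. The same order was not counted over all genes, and ATRA+Cfz is 1 library. It lay below every ATRA library for 29 of the 36 genes and for 44.9% of all tested genes. The heat map of all 8 libraries shows the lower levels as a blue field in the treated libraries. The field is palest with Cfz and darkest with ATRA+Cfz, broken by ATM, NBN and RAD50.

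**Figure D1:**
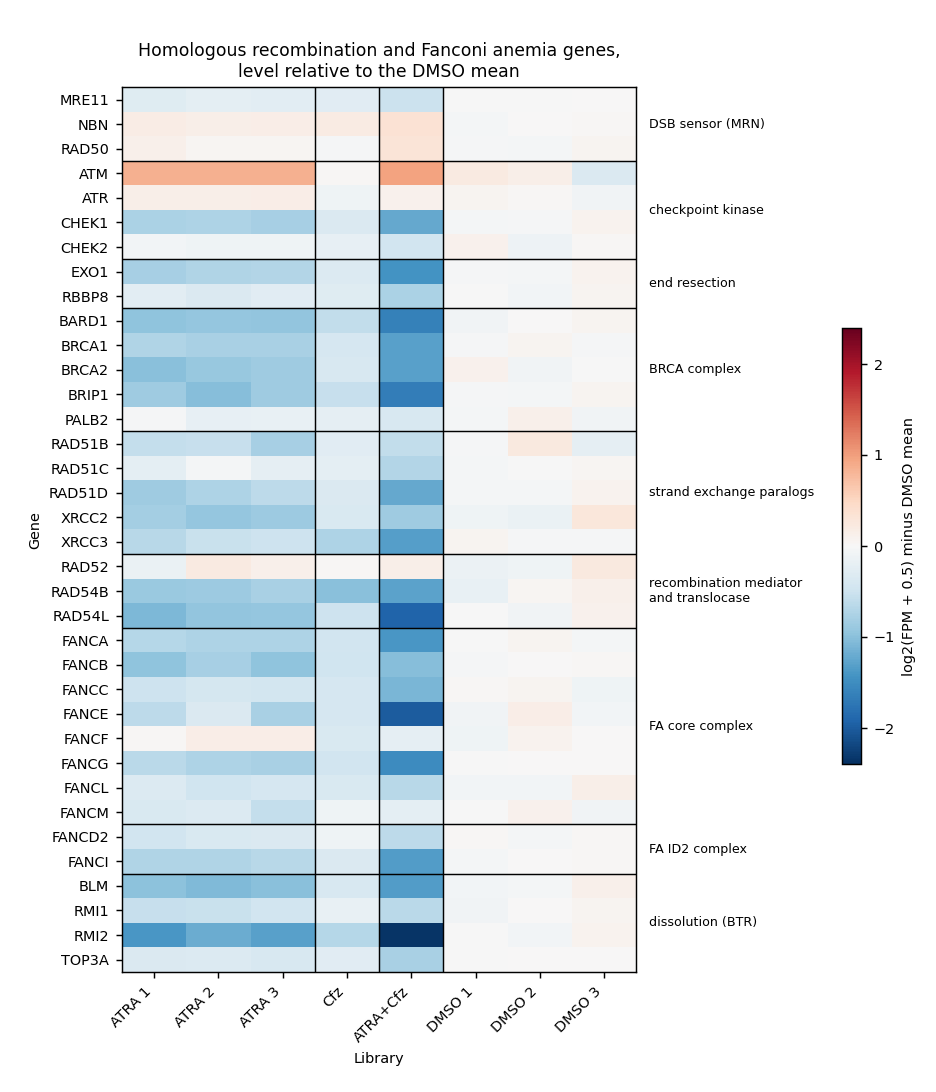
Level of each of the 36 genes (rows, by role) in each library (columns), as log2(FPM + 0.5) minus the mean of the 3 DMSO libraries on that scale, blue for lower and red for higher. RMI2 with ATRA+Cfz is the lowest cell, at a log2 fold change of -2.36, and ATM is higher with ATRA and with ATRA+Cfz.

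The first comparison asked which of these genes changed over 12 h of ATRA without a carfilzomib pulse. With ATRA, 27 of the 36 genes fell and 3 rose (limma on log2(FPM + 0.5), Benjamini-Hochberg adjusted p under 0.05 over 15827 genes), while 27.4% of all tested genes fell and 21.3% rose. The median log2 fold change was -0.57 over the 36 genes and -0.03 over all genes. The largest falls were in RMI2, BLM, RAD54L and BARD1, and the genes that rose were ATM, NBN and ATR. PALB2, RAD51C, RAD52, FANCF, RAD50 and CHEK2 did not pass the test. In bulk RNA such as this, fewer cells that express a gene and less RNA per cell cannot be told apart. The 3 ATRA libraries lay below all 3 DMSO libraries for 28 of the genes, which was so for 31.1% of all tested genes, and above them for 3 genes, against 25.5% of all.

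Among the break sensors, NBN, which brings ATM to the break, had 96.6, 93.5 and 95.5 FPM in the ATRA libraries, against 82.8, 86.1 and 86.3 FPM in the DMSO libraries. The groups did not overlap, and the difference was small, with a log2 fold change of 0.16 ± 0.04 (SE). MRE11, the nuclease of the complex, moved the other way and fell, averaging 109 ± 1.96 FPM with ATRA and 131 ± 1.15 FPM with DMSO (SD, n = 3 each, log2 fold change -0.26). RAD50, the ATPase that tethers the ends, averaged 130.4 ± 3.78 FPM with ATRA and 124.5 ± 5.17 FPM with DMSO, which was not called (log2 fold change 0.07, adjusted p = 0.208) but was called higher without DMSO 3 (0.10, adjusted p = 0.0171). RAD50 is uncertain, because its 4 lanes differed by more than sampling noise in at least 1 library and it shares 7784 exon bases with AC116366.3 on the same strand. Summed over both IDs, the ATRA level was 1.099 times that of DMSO.

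ATM rose most of the 36 genes. It had 145, 145 and 146 FPM in the ATRA libraries, against 92.9, 88.4 and 63.0 FPM in the DMSO libraries, with no overlap. Its log2 fold change was 0.85 ± 0.11 (SE, limma, Benjamini-Hochberg adjusted p = 5.4e-05), and the wide DMSO spread came from DMSO 3. ATR, the kinase that answers single-stranded DNA at stalled forks, had 130, 129 and 132 FPM in the ATRA libraries, against 123, 120.3 and 110.4 FPM in the DMSO libraries. The groups lay apart, but the log2 fold change was only 0.15 ± 0.04 (SE), and it lost its call without ATRA 1 (adjusted p = 0.0501) or ATRA 3 (adjusted p = 0.0596).

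The effector kinases did not follow the apical ones. CHEK1, which ATR activates, had 72.0, 73.1 and 70.6 FPM with ATRA, against 118, 120.4 and 130.2 FPM with DMSO. This was a log2 fold change of -0.77 ± 0.04 (SE), with the groups far apart. CHEK2, which ATM activates, had 28.9, 28.2 and 28.0 FPM with ATRA, against 32.6, 27.8 and 30.8 FPM with DMSO. The CHEK2 ranges overlapped and the gene was not called, with a 95% interval of -0.24 to 0.05 on the log2 scale.

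Both end resection factors fell. EXO1, an exonuclease, had 56.9, 60.5 and 60.6 FPM with ATRA, against 97.6, 96.0 and 105 FPM with DMSO. The groups lay far apart (log2 fold change -0.74 ± 0.05 SE). RBBP8, also called CtIP, starts the cut with MRE11 and averaged 135 ± 4.21 FPM with ATRA and 166 ± 7.39 FPM with DMSO (log2 fold change -0.29).

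In the BRCA complex, 4 of 5 genes fell, with a median log2 fold change of -0.91. BRCA1 (chr17:43044295-43170245, minus strand, GENCODE release 29 on GRCh38) had 87.3, 84.6 and 83.9 FPM with ATRA, against 141, 151 and 143 FPM with DMSO. Its partner BARD1 had 57.0, 58.8 and 58.2 FPM with ATRA, against 106, 113 and 117 FPM with DMSO. Neither pair of groups came near overlapping, and the log2 fold changes were -0.76 ± 0.04 for BRCA1 and -0.94 ± 0.05 for BARD1 (SE). BRCA2, the central mediator of strand exchange, had 22.9, 24.5 and 25.5 FPM with ATRA, against 49.7, 43.6 and 45.9 FPM with DMSO. BRIP1, a helicase that binds BRCA1, had 36.9, 32.9 and 37.0 FPM with ATRA, against 66.1, 65.2 and 70.9 FPM with DMSO. Both were reduced by nearly the same amount, with log2 fold changes of -0.92 ± 0.06 for BRCA2 and -0.91 ± 0.06 for BRIP1 (SE). PALB2, the bridge between BRCA1 and BRCA2, stood out from the other genes of the complex. It had 43.4, 38.2 and 38.9 FPM with ATRA, against 42.7, 48.0 and 41.6 FPM with DMSO, with overlapping ranges and no call (log2 fold change -0.13, 95% interval -0.28 to 0.02). Without DMSO 3 the PALB2 value was -0.17 and was called (limma, Benjamini-Hochberg adjusted p = 0.0321).

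The strand exchange paralogs assist the search for the sister sequence, and 4 of the 5 fell. XRCC2 had 51.1, 47.3 and 49.3 FPM with ATRA, against 84.3, 80.6 and 109 FPM with DMSO, where DMSO 3 was the highest. Its log2 fold change was -0.87 ± 0.09 (SE). RAD51D averaged 31.2 ± 2.53 FPM with ATRA and 52.2 ± 2.85 FPM with DMSO (SD, n = 3 each, log2 fold change -0.73). XRCC3 fell by 0.56 on the log2 scale, and it shares 5756 exon bases with KLC1 on the opposite strand, which was higher with ATRA. RAD51B, the least abundant gene of the 36, had 1.51, 1.53 and 1.21 FPM with ATRA, against 2.45, 3.02 and 2.07 FPM with DMSO. It was called lower at -0.64 ± 0.17 (SE), but not by DESeq2 (adjusted p = 0.0971). RAD51C averaged 24.7 ± 1.83 FPM with ATRA and 27.6 ± 0.90 FPM with DMSO, which was not called (log2 fold change -0.16, adjusted p = 0.072) except without ATRA 2 (-0.22, adjusted p = 0.028).

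Of the mediators and translocases, RAD54L had 15.7, 17.4 and 17.6 FPM with ATRA, against 33.8, 31.8 and 36.2 FPM with DMSO. The log2 fold change was -0.98 ± 0.07 (SE, limma, Benjamini-Hochberg adjusted p = 6.7e-07), with no overlap. RAD54B, its relative, averaged 6.29 ± 0.30 FPM with ATRA and 11.7 ± 1.29 FPM with DMSO (SD, n = 3 each, log2 fold change -0.85). It shares 3139 exon bases with FSBP on the same strand, and the FSBP ID also stood on a line named RAD54B, so RAD54B is uncertain. Summed over both IDs, ATRA was 0.516 times DMSO. RAD52, a mediator whose role is minor in cells with BRCA2, averaged 10.4 ± 1.46 FPM with ATRA and 10.0 ± 1.57 FPM with DMSO, with overlapping ranges.

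In the Fanconi core complex, 7 of 8 genes fell, with a median log2 fold change of -0.52. FANCB, a scaffold of the catalytic module, had 6.23, 7.03 and 6.24 FPM with ATRA, against 12.4, 12.7 and 12.9 FPM with DMSO. This was a log2 fold change of -0.91 ± 0.10 (SE), with the groups well apart. FANCA, which binds FANCG, had 29.9, 28.8 and 28.6 FPM with ATRA, against 47.9, 50.3 and 46.6 FPM with DMSO. FANCG had 37.7, 35.3 and 34.5 FPM with ATRA, against 59.1, 59.5 and 59.4 FPM with DMSO. The 2 partners fell alike, at log2 fold changes of -0.72 ± 0.05 each (SE), with no overlap. FANCE, which contacts FANCD2, averaged 9.80 ± 1.596 FPM with ATRA and 14.9 ± 1.51 FPM with DMSO (SD, n = 3 each, log2 fold change -0.58 ± 0.12 SE). FANCC, FANCM and FANCL had smaller falls, of 0.45, 0.42 and 0.40 on the log2 scale. FANCM is the translocase that anchors the complex, and FANCL is its ubiquitin ligase. FANCF, an adaptor of the complex, was the exception, at 33.1, 36.3 and 36.5 FPM with ATRA, against 30.4, 34.5 and 32.7 FPM with DMSO, with overlapping ranges. FANCA shares 2302 exon bases with ZNF276 on the opposite strand, and ZNF276 was higher with ATRA by 0.50 on the log2 scale.

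The ubiquitinated pair fell together. FANCI (chr15:89243949-89317261, plus strand) had 166, 166 and 172 FPM with ATRA, against 266, 276 and 281 FPM with DMSO. FANCD2 had 56.4, 59.9 and 61.2 FPM with ATRA, against 79.4, 75.1 and 79.0 FPM with DMSO. Neither overlapped, and the log2 fold change was -0.71 ± 0.04 for FANCI and -0.39 ± 0.05 for FANCD2 (SE).

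All 4 genes of the dissolution complex, which separates joined chromatids without a crossover, fell. RMI2 (chr16:11249619-11381662, plus strand), the small subunit that steadies the complex, had 11.2, 13.1 and 12.0 FPM with ATRA, against 29.95, 28.98 and 32.1 FPM with DMSO. BLM (chr15:90717327-90816165, plus strand) had 38.9, 36.9 and 38.3 FPM with ATRA, against 74.3, 74.7 and 84.0 FPM with DMSO. Their groups were the furthest apart of the 36 genes on the log2 scale, at -1.29 ± 0.08 for RMI2 and -1.02 ± 0.06 for BLM (SE). RMI1 and TOP3A, the topoisomerase, changed less, by -0.52 ± 0.05 and -0.36 ± 0.04 (SE).

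**Figure D2:**
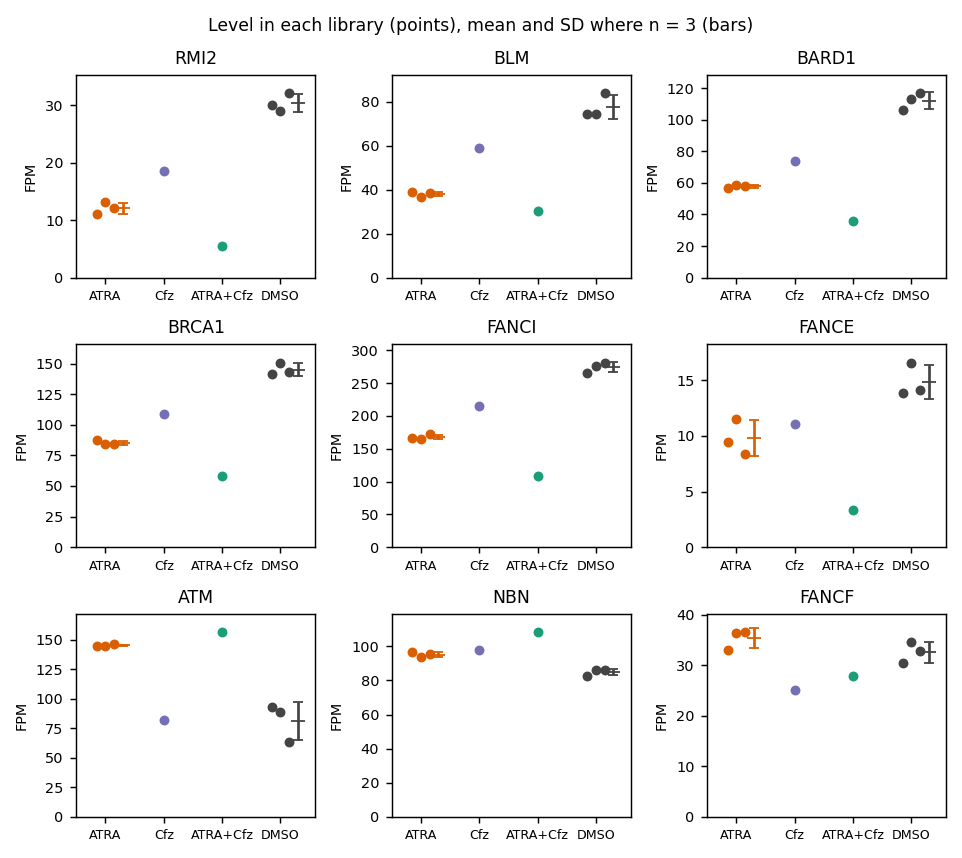
FPM in each library (points) by treatment for 9 of the genes, with the mean and SD beside groups of 3 libraries. RMI2, BLM, BARD1, BRCA1, FANCI and FANCE are highest with DMSO and lowest with ATRA+Cfz, while ATM and NBN are higher with ATRA and with ATRA+Cfz, and FANCF shows overlapping ATRA and DMSO libraries.

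The next comparison set the carfilzomib pulse alone against DMSO. With Cfz, 22 of the 36 genes fell and NBN alone rose, while 17% of all tested genes fell and 7.94% rose. The median log2 fold change was -0.35 over the 36 genes and -0.08 over all genes. The largest falls were in RAD54B, XRCC3, RMI2 and BARD1. The Cfz library lay below every DMSO library for 32 of the genes, which was so for 46.4% of all tested genes. Mitochondrially encoded genes took 5.43% of the reads of the Cfz library, nearer to DMSO 3 than to DMSO 1 and DMSO 2.

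RAD54B had 5.58 FPM with Cfz, against 10.3, 12.1 and 12.8 FPM with DMSO, a log2 fold change of -1.005 ± 0.157 (SE, limma, Benjamini-Hochberg adjusted p = 9.7e-04). The overlapping FSBP ID had 3.81 FPM with Cfz and averaged 3.75 FPM with DMSO, and the sum of both was 0.606 times DMSO, so the size of this fall depends on how the 2 genes share reads. XRCC3 had 8.12 FPM with Cfz, against 14.5, 13.5 and 13.5 FPM with DMSO (-0.73 ± 0.13 SE). RMI2 had 18.6 FPM with Cfz, below the 28.98 to 32.1 FPM of the DMSO libraries (-0.69 ± 0.11 SE). These 3 genes, of translocation, strand exchange and dissolution, were all outside the DMSO range.

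Within the BRCA complex, BARD1 had 73.7 FPM with Cfz, against 106, 113 and 117 FPM with DMSO (log2 fold change -0.60 ± 0.06 SE). BRIP1 had 45.8 FPM with Cfz, against 66.1, 65.2 and 70.9 FPM with DMSO (-0.55 ± 0.08 SE). Each Cfz level was clearly below the DMSO range, and so were those of the central pair. BRCA1 had 109 FPM with Cfz, against 141 to 151 FPM with DMSO (-0.41 ± 0.06 SE). BRCA2 had 35.2 FPM with Cfz, against 43.6 to 49.7 FPM with DMSO (-0.39 ± 0.09 SE). PALB2, at 37.7 FPM, was not called (-0.22, adjusted p = 0.122), but was without DMSO 3 (-0.26, adjusted p = 0.0272).

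The translocase RAD54L had 23.95 FPM with Cfz, against 31.8 to 36.2 FPM with DMSO (-0.49 ± 0.10 SE). In the core complex, FANCB had 8.98 FPM with Cfz, against 12.4 to 12.9 FPM with DMSO (-0.47 ± 0.14 SE). The FANCB call was lost with median-ratio scaling (adjusted p = 0.0518), with DESeq2 (adjusted p = 0.237) and without DMSO 2 (adjusted p = 0.0566). FANCA had 34.8 FPM with Cfz, against 46.6 to 50.3 FPM with DMSO (-0.47 ± 0.08 SE). All 3 levels were again below every DMSO library, as was FANCG at 43.2 FPM (-0.45 ± 0.07 SE).

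FANCI fell to 216 FPM with Cfz, against 266 to 281 FPM with DMSO (-0.35 ± 0.05 SE), whereas its partner FANCD2, at 72.9 FPM, was not called (-0.09, adjusted p = 0.333), and lay below its DMSO range of 75.1 to 79.4 FPM. FANCF, which was not called with ATRA, was called lower with Cfz, at 25.1 FPM (-0.37 ± 0.09 SE), but not by DESeq2 (-0.31, adjusted p = 0.142). XRCC2, at 69.8 FPM, was not called (-0.37, adjusted p = 0.057), but was when any 1 of the DMSO libraries was left out (-0.42, -0.46 and -0.24 without DMSO 1, 2 and 3, adjusted p = 0.0492, 0.0231 and 0.00577). CHEK1 fell to 96.7 FPM (-0.34 ± 0.06 SE), and CHEK2, at 26.2 FPM, was not called (-0.20, adjusted p = 0.139). NBN had 97.6 FPM with Cfz, above the 82.8 to 86.3 FPM of DMSO (0.20 ± 0.05 SE). ATM had 81.8 FPM with Cfz, inside the DMSO range of 63.0 to 92.9 FPM (0.03 ± 0.16 SE). Without DMSO 3 its sign turned and it was called lower, at -0.147 (limma, Benjamini-Hochberg adjusted p = 0.0158). ATR had 110 FPM (-0.10, not called), and was called lower without DMSO 3 (-0.15, adjusted p = 0.0119).

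Each Cfz value is 1 library, so these differences have no replicate check and rest on the spread of the other groups. With DESeq2 13 of the 22 falls were called, those of BRCA2, RAD51D, FANCB, FANCC, FANCF, FANCL, TOP3A, EXO1 and MRE11 not, and among calls over all genes 31.8% were higher by limma, 47.9% after median-ratio scaling, 42.2% by edgeR and 53.1% by DESeq2, so the balance of directions depends on the scaling.

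Where ATRA followed the carfilzomib pulse, 28 of the 36 genes were lower than with DMSO and 3 were higher, against 30.5% and 20% of all tested genes. The median log2 fold change was -0.94 over the 36 genes and -0.05 over all genes. RMI2, FANCE, RAD54L and BRIP1 fell most, and ATM, NBN and RAD50 rose. FANCF, FANCM, RAD51B, RAD52 and ATR were not called. Without DMSO 3, RAD51B (-0.70, adjusted p = 0.0311) and FANCF (-0.22, adjusted p = 0.0496) were called lower, and FANCF was also without DMSO 1 (-0.27, adjusted p = 0.0306). The ATRA+Cfz group is also 1 library, and the 3 treatments share the DMSO libraries.

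RMI2 had 5.52 FPM with ATRA+Cfz, against 29.95, 28.98 and 32.1 FPM with DMSO, a log2 fold change of -2.36 ± 0.11 (SE, limma, Benjamini-Hochberg adjusted p = 2.0e-08). FANCE (chr6:35452356-35467103, plus strand) had 3.32 FPM with ATRA+Cfz, against 13.9, 16.6 and 14.1 FPM with DMSO (-2.00 ± 0.17 SE). Its ATRA+Cfz value rests on 47 reads. RAD54L had 8.57 FPM with ATRA+Cfz, against 33.8, 31.8 and 36.2 FPM with DMSO (-1.92 ± 0.10 SE). These 3 genes serve dissolution, crosslink repair and strand exchange, and each was far below its lowest DMSO library.

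BRIP1 had 20.9 FPM with ATRA+Cfz, against 66.1, 65.2 and 70.9 FPM with DMSO (-1.66 ± 0.08 SE). BARD1 had 35.8 FPM with ATRA+Cfz, against 106, 113 and 117 FPM with DMSO (-1.63 ± 0.06 SE). The other BRCA genes moved in the same direction, with BRCA1 at 58.15 FPM (-1.31 ± 0.06 SE) and BRCA2 at 18.5 FPM (-1.30 ± 0.09 SE). FANCG had 20.5 FPM with ATRA+Cfz, against 59.1 to 59.5 FPM with DMSO (-1.51 ± 0.07 SE). EXO1 had 36.7 FPM with ATRA+Cfz, against 96.0 to 105 FPM with DMSO (-1.43 ± 0.07 SE). FANCA had 17.95 FPM with ATRA+Cfz, against 46.6 to 50.3 FPM with DMSO (-1.40 ± 0.08 SE). None of these overlapped with DMSO, and neither did FANCI at 108 FPM (-1.34 ± 0.05 SE) or CHEK1 at 51.9 FPM (-1.24 ± 0.06 SE). Genes that had not passed the test with either single treatment were called lower here: PALB2 at 33.7 FPM (-0.38), RAD51C at 16.8 FPM (-0.70) and CHEK2 at 21.9 FPM (-0.46). Their single effects summed to -0.35, -0.39 and -0.30 on the log2 scale, and no interaction was called for them. The PALB2 call was lost with DESeq2 (-0.32, adjusted p = 0.0587). FANCD2 fell less than its partner, to 50.3 FPM (-0.62 ± 0.07 SE).

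On the side that rose, ATM had 156 FPM with ATRA+Cfz, against 92.9, 88.4 and 63.0 FPM with DMSO (0.96 ± 0.16 SE). NBN had 108 FPM with ATRA+Cfz, against 82.8, 86.1 and 86.3 FPM with DMSO (0.35 ± 0.05 SE). RAD50 had 155 FPM, against 123, 120.5 and 130.4 FPM with DMSO (0.32 ± 0.06 SE), and its sum with AC116366.3 was 1.203 times DMSO. MRE11, their partner in the sensor, fell to 90.9 FPM (-0.52 ± 0.05 SE), so the 3 subunits of MRE11-RAD50-NBN did not move in 1 direction. ATR had 126 FPM, against 110.4 to 123 FPM with DMSO, and was not called (0.10, adjusted p = 0.198), but was by edgeR (0.17, adjusted p = 0.0257).

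**Figure D3:**
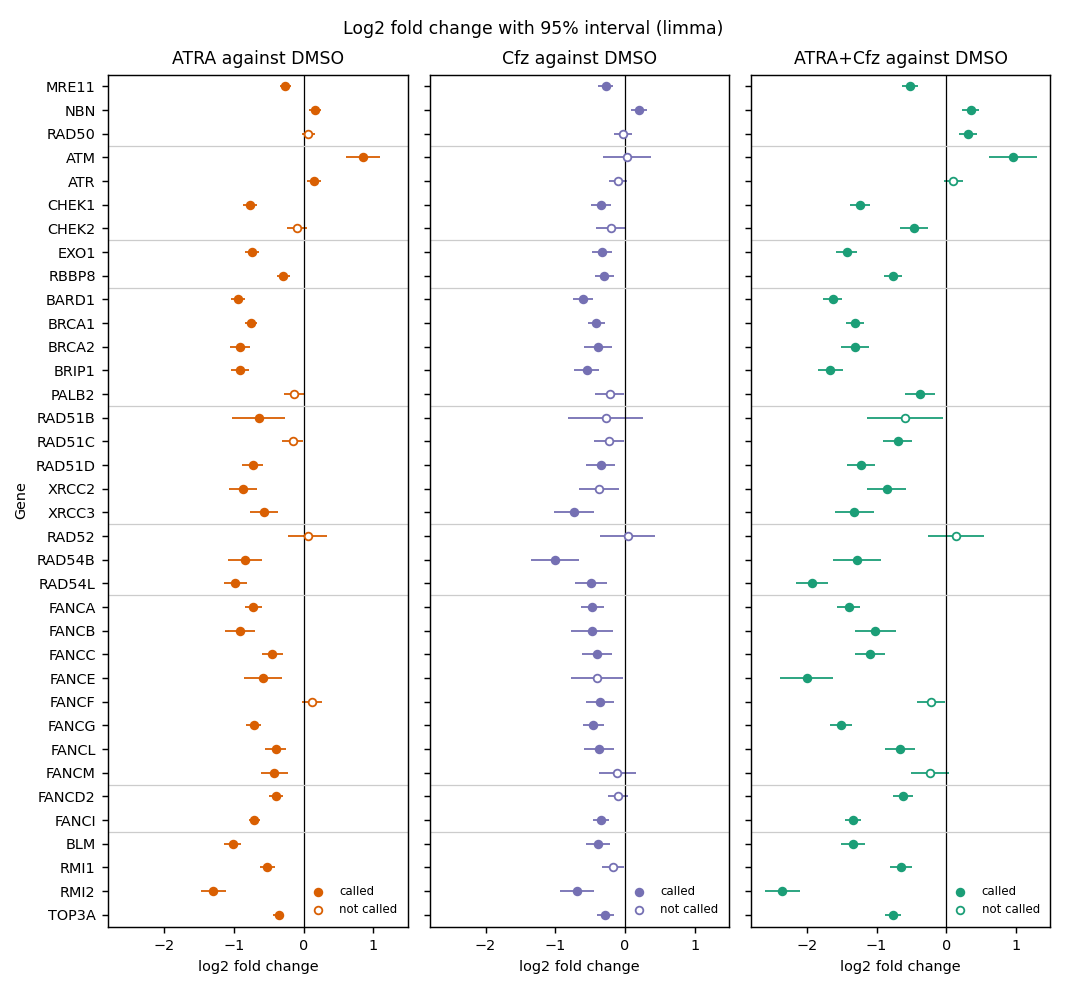
Log2 fold change against DMSO on the log2(FPM + 0.5) scale (horizontal) for each gene (vertical, by role), with 95% intervals from limma, for ATRA, Cfz and ATRA+Cfz. Filled points were called, open points were not; of the 36 genes 27, 22 and 28 fell, and 3, 1 and 3 rose.

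Set against its own single treatments, ATRA+Cfz was lower than Cfz for 24 of the 36 genes and higher for 2, ATM and RAD50, against 17.6% and 12.8% of all tested genes. The median log2 fold change was -0.51. RMI2 (-1.67 ± 0.14 SE), FANCE (-1.60 ± 0.21 SE) and RAD54L (-1.43 ± 0.13 SE) differed most. ATM differed by 0.93 ± 0.19 (SE), and its call was lost with robust empirical Bayes moderation (adjusted p = 0.0698). Without DMSO 3, FANCL (-0.30), NBN (0.15) and ATR (0.20) were called too. These are differences between 1 library and 1 library.

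Against ATRA, ATRA+Cfz was lower for 23 genes and higher for 2, NBN and RAD50, against 20.2% and 10.6% of all tested genes. The median log2 fold change was -0.40. FANCE had 3.32 FPM with ATRA+Cfz, against 9.44, 11.5 and 8.41 FPM with ATRA (-1.42 ± 0.17 SE, limma, Benjamini-Hochberg adjusted p = 1.3e-04). RMI2 had 5.52 FPM with ATRA+Cfz, against 11.2, 13.1 and 12.0 FPM with ATRA (-1.06 ± 0.11 SE). XRCC2 was at nearly the same level in both, 49.8 FPM with ATRA+Cfz, against 51.1, 47.3 and 49.3 FPM with ATRA (0.02 ± 0.13 SE). ATM was not called either (0.11 ± 0.16 SE), except without DMSO 3 (adjusted p = 0.0497). PALB2 (-0.25), RAD54B (-0.43) and FANCL (-0.27) were likewise called lower without DMSO 3. The NBN call was lost without ATRA 2 (0.17, adjusted p = 0.0648), without ATRA 3 (0.19, adjusted p = 0.0511) and with DESeq2 (0.22, adjusted p = 0.0649).

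Whether ATRA acted differently after carfilzomib was tested as an interaction, the log2 effect of ATRA after the pulse minus its effect without it. By limma 0 of the 36 genes were called, against 2.3% of all tested genes, and 9 had an unadjusted p under 0.05, 7 of them below zero, against 18.1% of all tested genes. By edgeR 0 were called and 7 had an unadjusted p under 0.05, against 2.01% and 17.1% of all tested genes. By DESeq2 0 were called and 5 had an unadjusted p under 0.05, the latter against 8.68% of all genes. Interaction calls over all genes numbered 364 by limma, 318 by edgeR and 300 by DESeq2. The 300 calls were 5.26% of the genes counted for DESeq2, a smaller set than for limma (2.3%) and edgeR (2.01%). Whether all 36 genes were in that smaller set was not checked, so the 0 by DESeq2 is less certain. The nearest to the threshold were FANCE, at -1.02 (95% interval -1.55 to -0.48, limma, Benjamini-Hochberg adjusted p = 0.0555), FANCI at -0.29 (adjusted p = 0.0639) and EXO1 at -0.35 (adjusted p = 0.0795). For BRCA2 the estimate was 0.00, with a 95% interval of -0.28 to 0.29, and for BRCA1 it was -0.14, from -0.31 to 0.04.

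The interaction calls depend on which library is left out. Over all tested genes they numbered 364 with all libraries. They fell to 2 without ATRA 1, 8 without ATRA 2 and 16 without ATRA 3. Without DMSO 1 they numbered 240, and without DMSO 2 169. The genes described here had no call in any of these fits. Without DMSO 3, 8 of the genes were called, while 12.5% of all tested genes were. RAD54L (-0.50), FANCE (-0.98), FANCG (-0.34), FANCI (-0.30), EXO1 (-0.40) and RBBP8 (-0.21) were then lower than the sum of the single effects on the log2 scale, and RAD50 (0.24) and ATM (0.25) were higher. FANCE was also called with the filter at 2 FPM, with median-ratio scaling and with robust moderation, and FANCI with the last 2 of these. Of interaction calls over all genes, 43.1% were above zero by limma, 45.9% by edgeR, 22.3% after median-ratio scaling and 24% by DESeq2.

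**Figure D4:**
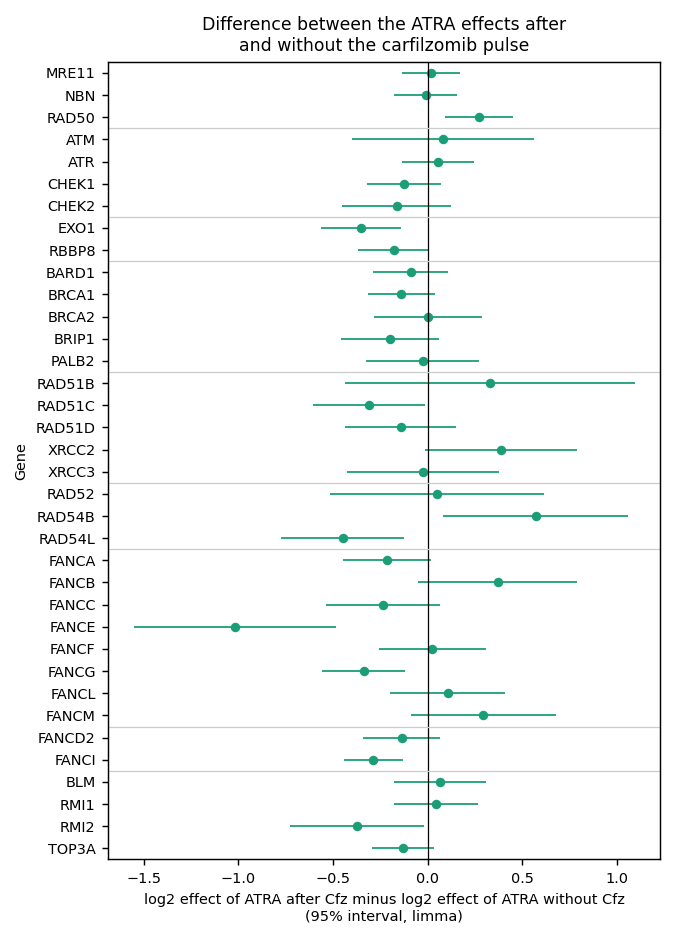
Interaction of ATRA and carfilzomib for each gene (log2 effect of ATRA after Cfz minus log2 effect of ATRA without Cfz, with 95% intervals from limma). Points left of 0 are lower with ATRA+Cfz than the single effects add up to; FANCE is furthest left, at -1.02, and none of the 36 was called.

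The other genes of these pathways were read from a list of 56. With ATRA, 36 of them fell and 6 rose, with a median log2 fold change of -0.28. Of all tested genes 27.4% fell and 21.3% rose, so the count of rises is below the share of all genes. The 6 largest falls were in CLSPN (-1.02), the adaptor through which ATR activates CHEK1, RAD51AP1 (-0.92), which stimulates strand exchange, H2AX (-0.91), the histone marked at breaks, TIMELESS (-0.83), a fork protection factor, FIGNL1 (-0.81), an ATPase of recombination, and HROB (-0.81), which recruits the MCM8-MCM9 helicase. The rises were in SWI5 (0.53), a partner of SFR1, BABAM2 (0.45), a subunit of a BRCA1 complex, SEM1 (0.34), a BRCA2 partner that is also a proteasome subunit, ERCC4 (0.27), the crosslink nuclease XPF, WDR48 (0.22), which activates the FANCD2 deubiquitinase, and RAD17 (0.20), a clamp loader of the checkpoint.

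With Cfz, 17 of the 56 fell and 4 rose, and with ATRA+Cfz 35 fell and 9 rose. Beside them stand 17% and 7.94% of all tested genes with Cfz, and 30.5% and 20% with ATRA+Cfz, so the counts of rises are not above the share of all genes. SEM1 averaged 94.3 FPM with ATRA, had 134 FPM with Cfz and 129 FPM with ATRA+Cfz, and averaged 74.7 FPM with DMSO. It rose with all 3 treatments, at log2 fold changes of 0.34, 0.84 and 0.78 against DMSO. CLSPN had the largest fall of this list with ATRA+Cfz, at 36.9 FPM against a mean of 132.5 FPM with DMSO (-1.83 ± 0.06 SE). Interactions were called for 3 of the 56, against 2.3% of all tested genes. All 3 were below zero: CENPX (-0.92), RPA1 (-0.34) and CLSPN (-0.38). Each rests on the lone Cfz and ATRA+Cfz libraries. With ATRA 1 left out, only 2 of all tested genes were called, so not all 3 held there.

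Of 18 genes of end joining, the other route of break repair, 10 fell and 1 rose with ATRA, with a median log2 fold change of -0.17. Those with the smallest p were POLQ (-0.79 ± 0.04 SE), the polymerase of end joining by microhomology, and LIG3 (-0.40 ± 0.04 SE), a DNA ligase. With Cfz 2 fell and 1 rose, and with ATRA+Cfz 9 fell and 2 rose. Of all tested genes, 27.4% fell and 21.3% rose with ATRA, 17% and 7.94% with Cfz, and 30.5% and 20% with ATRA+Cfz. The falls with Cfz, and the rises with each treatment, are thus not above the share of all genes. The difference between the lists was not tested.

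Most markers of replicating and dividing cells fell with each treatment, as most of the 36 genes did. With ATRA, 36 of 36 replication fork genes fell, with a median log2 fold change of -0.77. Those with the smallest p were MCM4 (-0.94 ± 0.03 SE), a subunit of the replicative helicase, and UHRF1 (-1.39 ± 0.05 SE), which binds hemimethylated DNA. All 30 mitosis genes fell too, with a median of -0.77. Those with the smallest p were MKI67 (-1.12 ± 0.04 SE), the Ki-67 antigen, and TOP2A (-0.91 ± 0.05 SE), a topoisomerase. With Cfz 28 fork genes fell and 1 rose, and 18 mitosis genes fell and 0 rose. With ATRA+Cfz all 36 and all 30 fell, at medians of -1.51 and -1.05. The shares of all tested genes are those given above for end joining. The lists parted in the interaction, with medians of -0.39 over the fork genes, -0.06 over the 36 genes and 0.07 over the mitosis genes. The difference between these medians was not tested.

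The summed level of the fork genes was 3270 to 3302 FPM with ATRA, 4845 FPM with Cfz, 2075 FPM with ATRA+Cfz and 5729 to 6090 FPM with DMSO. The summed level of the mitosis genes was 2900 to 2938 FPM with ATRA, 4302 FPM with Cfz, 2536 FPM with ATRA+Cfz and 5004 to 5743 FPM with DMSO. The 36 recombination and Fanconi genes summed to 1867 to 1884 FPM with ATRA, 2037 FPM with Cfz, 1552 FPM with ATRA+Cfz and 2456 to 2543 FPM with DMSO. All 3 sums had the same order of groups. The part of cell cycle distribution in the levels of the 36 genes was not tested.

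**Figure D5:**
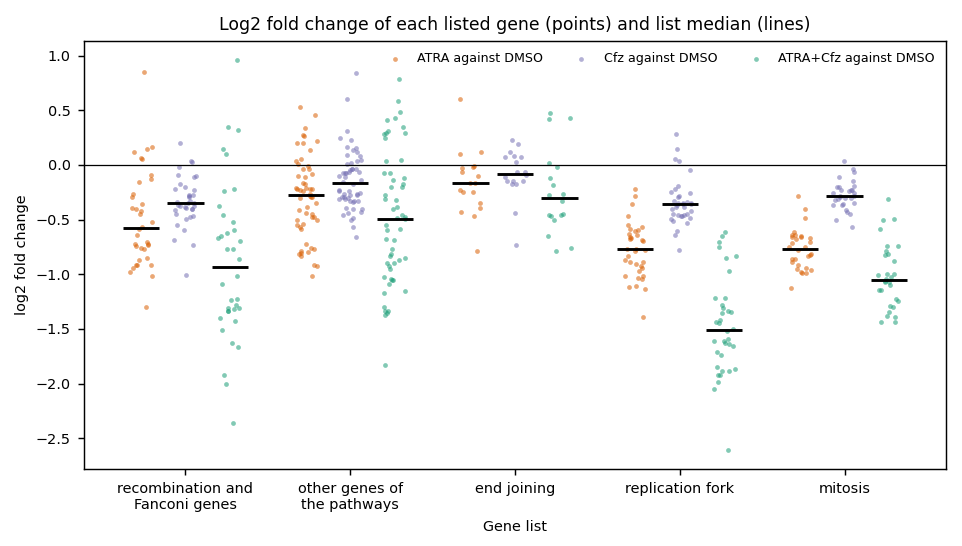
Log2 fold change against DMSO (vertical) of every gene of 5 lists (horizontal) with ATRA, Cfz and ATRA+Cfz, with list medians as lines. The recombination and Fanconi genes have medians of -0.57, -0.35 and -0.94, between those of the end joining list, at -0.17, -0.08 and -0.30, and those of the fork list, at -0.77, -0.36 and -1.51.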

How the data were processed

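Total RNA of MM.1S cells was sequenced as 8 libraries on 4 lanes each. Per the submitters' processing notes, fastp 0.20.0, kallisto 0.46.2 and DESeq2 were used. The sources used here do not give the build, the annotation or the strand setting, so opposite-strand overlaps can mix reads of 2 genes. The authors deposited FPM, a CPM unit (fragments scaled to a fixed total), per lane, with 24402 lines for 24249 gene IDs. Whole reads were recovered for 100% of values within 0.01 read. Depth was 14136937 to 17155331 reads per library.

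The 4 lanes of a library were averaged, so n counts libraries. R 4.3.3 ran limma 3.58.1, with its trend option, on log2(FPM + 0.5), a scale that understates the change of low genes, over the 15827 genes with a mean of the 4 group means of at least 0.5 FPM. A single model held the 8 libraries (residual degrees of freedom 4, prior 7.2), p-values were adjusted by Benjamini-Hochberg over all 15827 genes, and a gene was called at an adjusted p under 0.05. This assumes that the single libraries of Cfz and of ATRA+Cfz vary like the rest. Nothing in the labels ties libraries to separate cultures, so the p-values cover the spread between these libraries only, which may be technical. Alternatives included other pseudocounts and filters, median-ratio scaling, edgeR 4.0.16 and DESeq2 1.42.0 on recovered reads, robust moderation and leaving out each library. ATRA and DMSO libraries of the same number did not deviate together, with correlations of -0.006, -0.002 and 0.006, so the numbers were not taken as pairs.

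The genes and lists were chosen with earlier results of these data known. Another gene of these pathways is not reported here and is on none of the lists. Values in every library were given, per comparison with DMSO, for the 8 called genes with the largest change, for those called against the more common direction and for BRCA1, BRCA2, PALB2, FANCD2, FANCI, ATM, ATR, CHEK1 and CHEK2. Gene positions and overlaps come from GENCODE release 29 and promoters from RefSeq on GRCh38.p14. The limma step was tested on simulated data.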

Additional observations from a re-analysis of the deposited data

How the results depend on the processing

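Directions were stable for most genes. Over all alternatives, 567 of the values for the 36 genes with ATRA kept their direction and side of the threshold. Of the rest, 2 reversed, 3 gained a call and 3 lost one. With Cfz 477 were kept, 7 reversed, 6 gained a call and 13 lost one. With ATRA+Cfz 497 were kept, 0 reversed, 5 gained a call and 1 lost one. Fewer alternatives could be run for Cfz and ATRA+Cfz than for ATRA. The fit with the replicate block over DMSO and ATRA libraries gave 27 falls with ATRA, as without it, and the block changed no call among the 36 genes. With DESeq2 the falls with Cfz numbered 13, all among the 22 of limma, and the rises of ATRA+Cfz over ATRA numbered 1. With robust moderation the rises of ATRA+Cfz over Cfz numbered 1. Leaving out single libraries gave 2 to 4 rises with ATRA and 2 to 4 of ATRA+Cfz over Cfz, both highest without DMSO 3, and 1 to 3 over ATRA, the lowest without ATRA 2 or ATRA 3. Interactions below zero numbered 1 with the filter at 2 FPM, 2 with median-ratio scaling, 2 with robust moderation and 0 to 6 with single libraries left out, and those above zero 0 to 2, all highest without DMSO 3. For ATRA+Cfz against ATRA, 34.4% of all calls were higher by limma and 45.3% by edgeR. Genes that reversed had values near zero, with ATM after Cfz the exception. RAD52 with ATRA lay between -0.020 and 0.175 and with Cfz between -0.035 and 0.156 when single libraries were left out. RAD50 with Cfz was 0.043 with median-ratio scaling, 0.016 by edgeR and 0.035 by DESeq2, and -0.046 to 0.010 with single libraries left out. ATM with Cfz lay between -0.147 and 0.131, the lowest without DMSO 3. The causes were not tested. The lone Cfz and ATRA+Cfz libraries limit every value that rests on them. Counts of 19 to 50 reads limit RAD51B, and a count of 47 reads limits FANCE with ATRA+Cfz, also in the interaction.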

Other observations

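Some genes that share exon bases with the 36 are given here beside them, picked after their values were seen. NPAT, a histone gene activator transcribed away from ATM, averaged 66.6 FPM with ATRA and 72.6 FPM with DMSO (log2 fold change -0.13, limma, Benjamini-Hochberg adjusted p = 0.0639). It was lower with Cfz (-0.39) and with ATRA+Cfz (-0.35). C11orf65, which shares 114 exon bases with ATM on the opposite strand, averaged 3.18 FPM with ATRA and 1.37 FPM with DMSO. Its log2 fold changes were 1.00 with ATRA, -0.18 with Cfz and 1.09 with ATRA+Cfz. Whether reads of ATM and C11orf65 mix was not tested. HSCB, an iron-sulfur cluster co-chaperone on the strand opposite CHEK2, averaged 11.3 FPM with ATRA and 6.88 FPM with DMSO (0.67, adjusted p = 1.8e-04). The unnamed locus AC060780.1 shares 120 exon bases with BRCA1 on the same strand and was higher with every treatment, averaging 32.8 FPM with ATRA, with 33.9 FPM with Cfz, 49.7 FPM with ATRA+Cfz and a mean of 25.0 FPM with DMSO. Its log2 fold changes were 0.38, 0.43 and 0.98, all called. GAS2, on the strand opposite FANCF, was lower with ATRA (-0.31), Cfz (-0.36) and ATRA+Cfz (-0.72).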
